A study of Homo sapiens with 32 samples.

Results

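A549 cells held in vehicle for 24 h were compared with A549 cells held in vehicle for 6 h. A549 is a human lung adenocarcinoma line with features of alveolar epithelium. The comparison uses 8 of the 32 arrays of the series, chosen by their titles alone, with 4 arrays at 6 h and 4 at 24 h. The other arrays hold A549 given 2 µM RO4929097, an inhibitor of gamma-secretase, the protease that releases the active part of Notch receptors, and H460a, a large cell lung carcinoma line, under the same treatments and times. Plating was at 35% confluency, vehicle or compound was added after a night, and lysis came 6 or 24 h later, so that hours in vehicle and hours since plating rise together. The solvent of the vehicle and the density at lysis were not found in the labels, and time, density and use of the medium cannot be told apart. Whether the 4 arrays of a group hold RNA of 4 cultures is not stated, and every p-value here is against the scatter among arrays, some or all of which may be technical.

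A dividing culture copies its DNA with helicases and polymerases whose genes are switched on by E2F factors as cells enter S phase. In cells that leave the cycle, the DREAM complex and the retinoblastoma family hold the genes of replication and mitosis low, through E2F sites, CCAAT boxes and a short element known as the CHR. As a culture ages, cells touch more neighbours, draw down glucose, amino acids and lipids, and sit in the factors they secrete, and each of these is known to act on transcription. A549 cells are also known for making plasma proteins such as fibrinogen, and mucus proteins of the airway.

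Levels are log2 intensities of Affymetrix arrays after quantile normalization over all 32 arrays, which gives every array the same distribution of values. A difference is the mean at 24 h minus the mean at 6 h on this log2 scale, ± its standard error (limma, n = 4 arrays a group). A gene is said to rise or fall where its p-value, adjusted over all 19775 genes tested, is under 0.05. The number of arrays limits the precision, and the median standard error of a difference was 0.083.

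The 4 vehicle arrays at 6 h stood apart from the rest before any scaling. Their mean intensity was 468 to 496, against 584 to 597 for the 4 vehicle arrays at 24 h. With RO4929097 at 6 h, arrays 1 and 2 were also low, at 496 and 531, while arrays 3 and 4 read 583 and 589. Control transcripts added at hybridization averaged 10.45 to 10.66 in vehicle at 6 h and 10.94 to 11.15 at 24 h. The median intensity went the other way, at 99.35 to 102.14 in vehicle at 6 h and 95.96 to 98.7 at 24 h. With RO4929097 at 6 h it was also higher on arrays 1 and 2 than on arrays 3 and 4. Dim and bright thus refer to the mean intensity here and below, and not to the median. Because all 4 vehicle arrays at 6 h were dim and no array at 24 h was, mean intensity and time cannot be told apart within vehicle. RO4929097 offers a comparison at like mean intensity, the 4 arrays at 24 h against arrays 3 and 4 at 6 h, which is called the bright RO4929097 pair below. It shares no array with the vehicle comparison, but these cells carried the compound. With arrays 3 and 4 alone at 6 h, its median standard error was 0.101, against 0.083 in vehicle. A difference of a given size thus passes less readily in the pair.

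Of the 19775 genes, 7648 passed the threshold in vehicle, or 38.7%, with 3273 higher at 24 h (16.6%) and 4375 lower (22.1%). These shares are the background against which every gene list below is read. Most differences were small, with a median size of 0.32 among genes past the threshold. Where a size of at least 0.58 was also asked for, 742 genes remained (3.75%), 600 higher (3.03%) and 142 lower (0.718%). In the bright RO4929097 pair 1714 genes passed (8.67%), 1045 higher (5.28%) and 669 lower (3.38%), and over all 8 RO4929097 arrays 3459 passed (17.5%), 1956 higher (9.89%) and 1503 lower (7.6%). Of the genes that rose in vehicle, 688 also rose in that pair (3.48% of all genes), which is 21% of the vehicle list and 65.8% of the other. Of those that fell in vehicle, 389 also fell there (1.97% of all genes), which is 8.89% of the vehicle list and 58.1% of the other. Only 40 genes passed in opposite directions. Without quantile normalization 5766 genes were higher and 2965 lower, so that 66% of calls were higher against 42.8% with it. The median over all genes moved little between both scales, from -0.05 to 0.01, but that of cytosolic ribosomal proteins, a list of high level, went from 0.03 to 0.33. Several lists turned, and not all of these were of high level. Type I interferon genes averaged 7.56 to 7.67 over the vehicle arrays, where the median gene read 7.61. Among lists not described further, heat shock chaperones went from 1 higher and 7 lower of 19 to 10 and 1 without quantile normalization, matrix proteases from 4 and 7 of 24 to 8 and 4, Notch targets from 3 and 7 of 20 to 5 and 3, type I interferon genes from 4 and 7 of 38 to 7 and 5, and autophagy and lysosome genes from 8 and 8 of 26 to 17 and 1. A covariate was also fitted, the mean of the log2 values of all probe sets of each array, called mean intensity as a covariate below. It is not the linear mean intensity given above. With it 785 genes passed in vehicle, 500 higher and 285 lower, and 57 of the 143 genes named here that had passed no longer did.

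In H460a vehicle, 24 h against 6 h, 6341 genes passed (32.1%), 3235 higher (16.4%) and 3106 lower (15.7%). These values stand beside the A549 ones where they bear on a gene. The time changes of the lines differed for 6137 genes (31%), and those of the treatments within A549 for 422 (2.13%). That last count ran from 133 to 842 with 1 array left out, and was 2569 without RO4929097 arrays 1 and 2 at 6 h and 1 H460a array that stands apart. Each difference between treatments given below for a gene uses all 8 RO4929097 arrays of A549, and not the bright RO4929097 pair alone.

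Markers of other cells were low on average, though 3 leukocyte, 1 endothelial, 3 fibroblast and 3 neuroendocrine markers lay above the median level. Of 12 neuroendocrine markers 3 rose and 1 fell in vehicle, with CHGB, described below, among those that rose. The 12 leukocyte markers averaged 6.68 to 6.78 on the arrays at 6 h and 6.45 to 6.56 at 24 h, where the median gene read 7.61. The 11 epithelial markers averaged near 10, but only 6 of them lay above the median level. In vehicle 6 of the 12 leukocyte markers, 4 of 10 endothelial and 6 of 11 fibroblast markers fell by 0.23 to 0.93. In the same lists 1 leukocyte and 1 fibroblast marker rose, by 0.25 and 0.93. In the bright RO4929097 pair 0 members of these lists fell. The fall of these markers ran with the dim arrays at 6 h, and its part in other falls of weakly measured genes was not tested. The ratio of 3′ to 5′ signal of beta-actin, a sign of RNA integrity, was 0.14 to 0.21 at 6 h and 0.19 to 0.24 at 24 h in A549 vehicle on the log2 scale. It was 2.19 on H460a vehicle array 3 at 6 h, the H460a array that stands apart. Without that array 6282 genes passed in H460a vehicle.

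**Figure D1:**
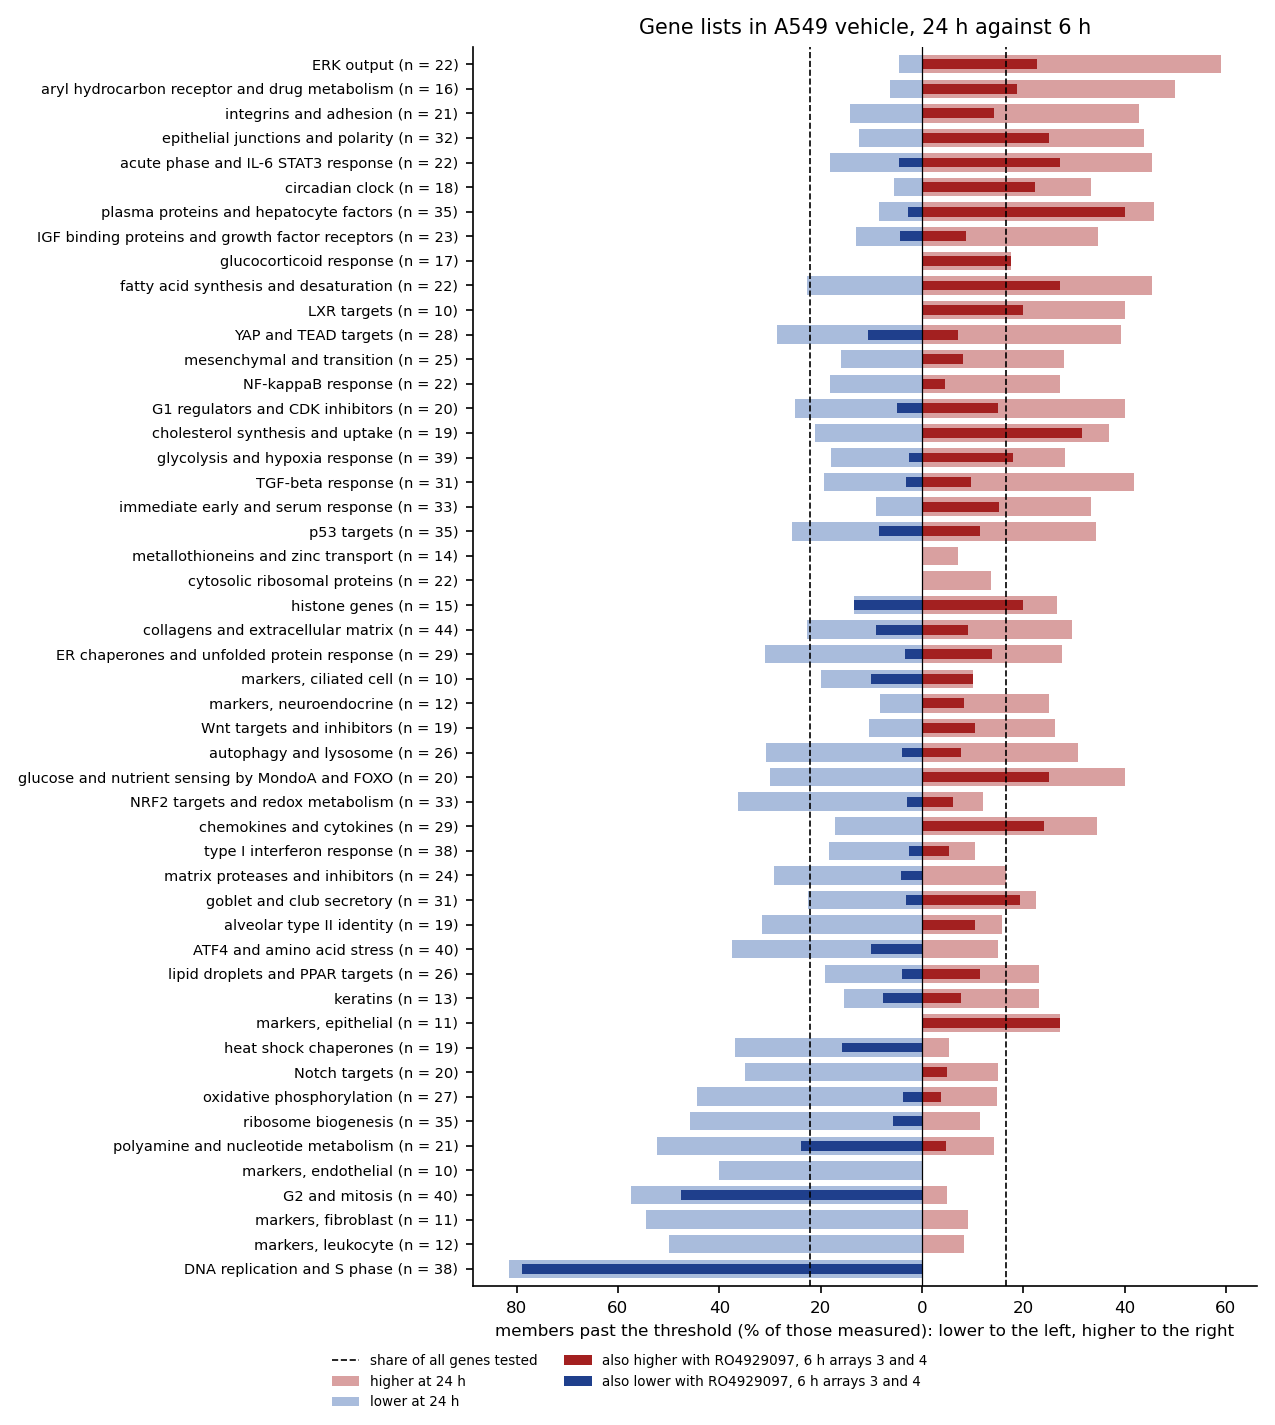
Share of each gene list that passed the threshold in A549 vehicle, 24 h against 6 h (wide pale bars, % of members measured, higher to the right and lower to the left), and the part of it that also passed the same way in the bright RO4929097 pair (narrow dark bars). Dashed lines give the share of all genes, 16.6% higher and 22.1% lower; DNA replication stands out to the left with 31 of 38 lower, 30 of them in both, while without quantile normalization the mitosis list turns to 13 higher and 10 lower.

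Of 38 DNA replication genes measured, 31 fell and 0 rose, with a median difference of -0.44 against -0.05 for all genes. In the bright RO4929097 pair 35 of the 38 fell (median -0.52), 30 of them shared with vehicle, and in H460a vehicle 36 fell (median -0.72). Without quantile normalization 19 still fell and 3 rose, and with mean intensity as a covariate 18 fell and 0 rose. The members that fell include the MCM helicase that unwinds DNA, the factors that load it, and enzymes that make or join DNA.

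Promoter sequences of RefSeq (GRCh38.p14) are shown for members of the replication and mitosis lists that fell, because short motifs recur within each list. Each is the 200 bases before the annotated start of 1 of 5 genes. Capitals mark GCGGGAA, an E2F-type site, CCAAT, the box bound by NF-Y, and TTTGAA, the core of the CHR, on either strand, so that ATTGG is CCAAT and TTCAAA is TTTGAA read from the other strand.
CDT1 (chr16:88803589-88803788, plus strand): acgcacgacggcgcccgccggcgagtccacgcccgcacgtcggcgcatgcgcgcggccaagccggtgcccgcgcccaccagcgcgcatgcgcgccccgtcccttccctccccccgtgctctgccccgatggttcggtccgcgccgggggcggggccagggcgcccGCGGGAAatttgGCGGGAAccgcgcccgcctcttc
MCM7 (chr7:100101398-100101597, minus strand): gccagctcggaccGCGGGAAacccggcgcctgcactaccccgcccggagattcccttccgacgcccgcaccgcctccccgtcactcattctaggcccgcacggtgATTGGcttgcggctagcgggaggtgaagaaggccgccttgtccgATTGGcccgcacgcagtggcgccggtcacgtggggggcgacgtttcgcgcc
ESPL1 (chr12:53268099-53268298, plus strand): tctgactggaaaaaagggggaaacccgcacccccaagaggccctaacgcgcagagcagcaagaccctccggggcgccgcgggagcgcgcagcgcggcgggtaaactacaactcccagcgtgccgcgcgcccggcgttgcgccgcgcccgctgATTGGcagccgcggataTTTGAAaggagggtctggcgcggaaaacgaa
CDC20 (chr1:43358781-43358980, plus strand): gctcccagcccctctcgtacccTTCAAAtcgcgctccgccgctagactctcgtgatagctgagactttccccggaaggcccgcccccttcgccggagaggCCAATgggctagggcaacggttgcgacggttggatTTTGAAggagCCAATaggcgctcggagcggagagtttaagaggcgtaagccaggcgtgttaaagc
CENPA (chr2:26785856-26786055, plus strand): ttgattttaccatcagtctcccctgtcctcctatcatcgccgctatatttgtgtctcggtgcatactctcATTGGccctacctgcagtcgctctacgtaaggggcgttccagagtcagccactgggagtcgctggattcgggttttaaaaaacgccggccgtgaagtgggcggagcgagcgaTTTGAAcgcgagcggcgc

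From 250 bases before to 50 after the start, searched on both strands, GCGGGAA was in 17 of the 33 replication promoters in the table, or 51.5%, against 8.65% of the 15384 promoters of all genes tested. TTTGAA was in 22 of 34 mitosis promoters (64.7%) against 11.9% of all, and CCAAT in 25 of those 34 (73.5%) against 36.1%. TTTGAA was in 1 replication promoter and GCGGGAA in 2 mitosis promoters, but CCAAT was common to both lists, in 18 of the 33 replication promoters (54.5%). Over the 4375 genes that fell in vehicle, of which 3446 had a promoter in the table, GCGGGAA was in 10% and TTTGAA in 10.7%, close to all genes. Over the 389 genes that fell both in vehicle and in the bright RO4929097 pair, 334 with a promoter, these shares were 18.9% and 20.1%. A match of letters is a description of the sequence and not a bound site.

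MCM2, a subunit of the replicative helicase, read 10.96, 10.97, 10.93 and 11.01 at 6 h and 10.05, 9.93, 10.03 and 10.02 at 24 h. All arrays at 24 h lay well below all arrays at 6 h. The difference was -0.96 ± 0.08 (adjusted p = 1.73e-10), a level 1.95-fold higher at 6 h, and it was -0.73 in the bright RO4929097 pair (adjusted p = 1.08e-06) and -0.58 in H460a. Its partners MCM5 and MCM7 fell by 0.75 each, and MCM3 and MCM6 by 0.71 and 0.59.

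CDT1, which with ORC1 and CDC6 loads the helicase on origins, read 9.39, 9.19, 9.25 and 9.62 at 6 h and 8.59, 8.40, 8.56 and 8.59 at 24 h. Its promoter above holds the E2F-type letters at positions -35 and -23 from the start. It fell by 0.83 ± 0.10 (adjusted p = 2.42e-07), and by 0.56 in the bright RO4929097 pair. With mean intensity as a covariate it read -0.40 and did not pass (adjusted p = 0.12). In H460a the difference was -0.16, which did not pass (adjusted p = 0.25), and the time change differed between lines by 0.67 (adjusted p = 0.00054). ORC1, the large subunit of the origin recognition complex, fell by 0.72 in A549 and by 0.79 in H460a.

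The replication members that did not pass in vehicle lay between -0.17 and 0.28, and 5 of these 7 fell in the bright RO4929097 pair. CCNE2, the cyclin that drives entry into S phase, is one of these 5, at 0.28 in vehicle and -0.75 in that pair.

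Mitosis genes fell less evenly. Of 40 measured, 23 fell and 2 rose in vehicle (median -0.22), while in the bright RO4929097 pair 31 fell and 0 rose (median -0.37), and in H460a 34 fell and 0 rose. Without quantile normalization the vehicle list turned, with 13 higher, 10 lower and a median of 0.058, and with mean intensity as a covariate 10 fell and 0 rose. Of the 15 members that did not pass in vehicle, 11 fell in the bright RO4929097 pair, among them TOP2A, the topoisomerase that untangles chromosomes, at -0.08 in vehicle and -0.55 in that pair, and at 0.28 in vehicle without quantile normalization.

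CDC20, the activator of the anaphase-promoting complex, read 10.60, 10.73, 10.73 and 10.77 at 6 h and 10.21, 10.21, 10.12 and 10.11 at 24 h. The groups did not overlap, and the difference was -0.54 ± 0.07 (adjusted p = 4.78e-07), -0.49 in the bright RO4929097 pair and -1.11 in H460a, a difference of -0.57 between lines (adjusted p = 3.48e-05). MYBL2, the B-MYB factor that switches on mitosis genes, fell by 0.78, and ESPL1, the separase that cuts cohesin, by 0.70. AURKB, the kinase of the chromosomal passenger complex, and CENPA, the histone variant of centromeres, each fell by 0.53. The fall of CENPA was 0.28 in the bright RO4929097 pair (adjusted p = 0.043).

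Both mitosis genes that rose in vehicle went against the rest. NUF2, a part of the kinetochore complex that holds microtubules, read 8.70, 8.56, 8.43 and 8.42 at 6 h and 8.90, 8.74, 8.84 and 8.99 at 24 h, a rise of 0.34 ± 0.10. In the bright RO4929097 pair it fell by 0.37 (adjusted p = 0.024), and over all RO4929097 arrays the time change differed from vehicle by -0.52 (adjusted p = 0.044). ECT2, a regulator of cytokinesis, rose by 0.39 with overlapping groups, and neither of its other 2 probe sets moved the same way.

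**Figure D2:**
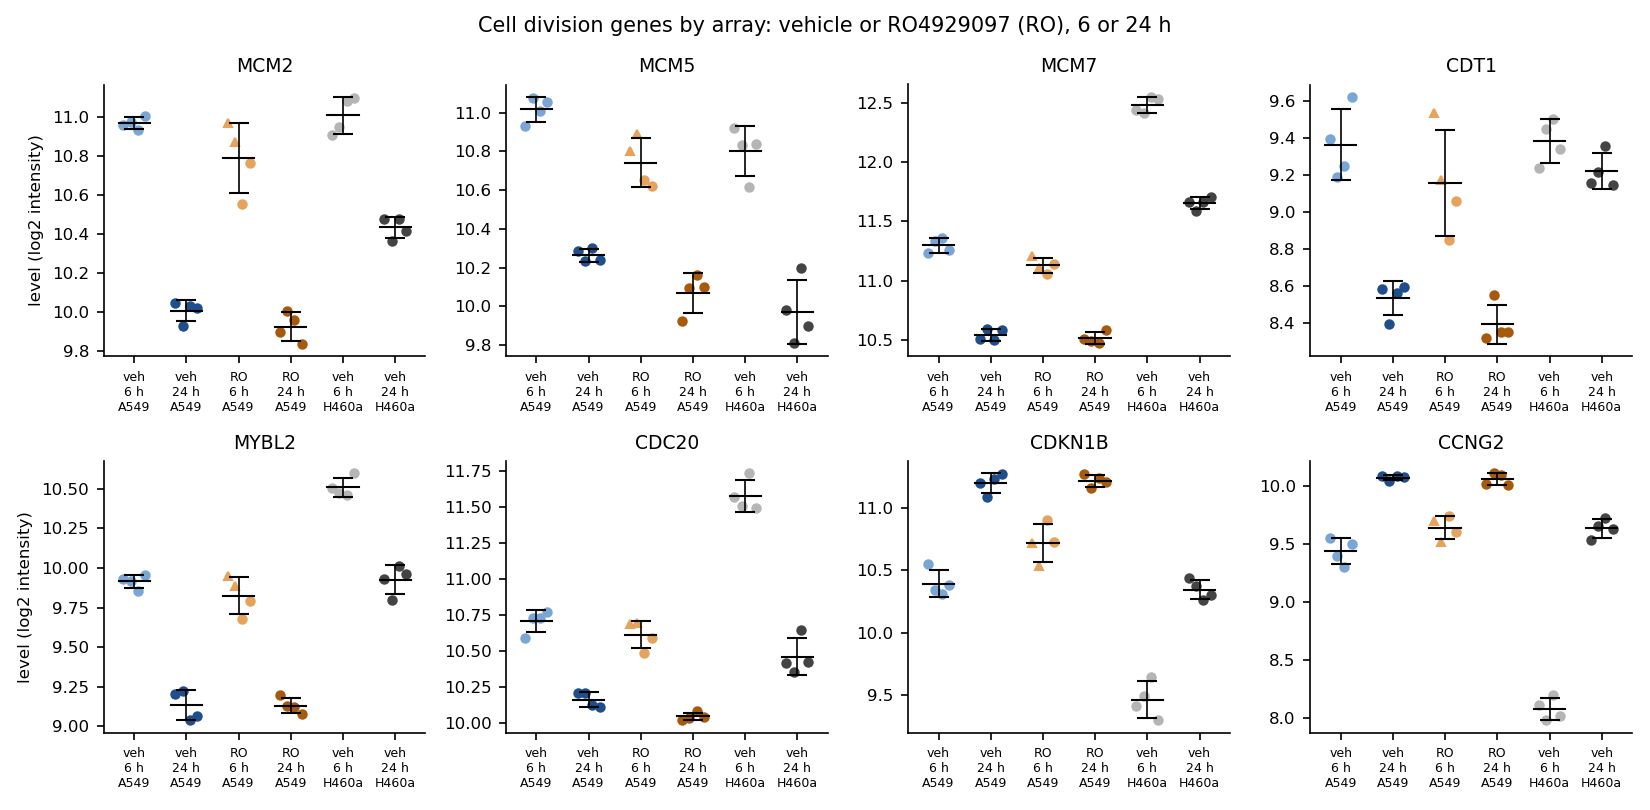
Log2 level of 8 genes of cell division on each array of 6 groups, with the mean (bar) and the SD (whiskers) of 4 arrays; triangles are RO4929097 arrays 1 and 2 at 6 h, which were dim. MCM2, MCM5, MCM7, CDT1, MYBL2 and CDC20 were lower at 24 h than at 6 h on every array of A549 vehicle, and CDKN1B and CCNG2, which restrain division, were higher.

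Among regulators of G1, 8 of 20 rose and 5 fell, while without quantile normalization 11 rose and 1 fell. CDKN1B, the p27 inhibitor of cyclin-dependent kinases, read 10.55, 10.34, 10.31 and 10.38 at 6 h and 11.20, 11.09, 11.23 and 11.27 at 24 h. It rose by 0.80 ± 0.08 (adjusted p = 8.22e-09), by 0.40 in the bright RO4929097 pair and by 0.88 in H460a. CCNG2 and BTG1, known for restraining division in resting cells, rose by 0.64 and 0.50 in vehicle and by 0.39 and 0.33 in the pair. These 3 are the members that rose in both.

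RBL2 and RB1, pocket proteins that restrain E2F, rose by 0.55 and 0.57 in vehicle but read 0.13 and -0.07 in the bright RO4929097 pair, where neither passed, and the other probe set of RB1 did not move the same way. CDK4, a kinase that opens the way to S phase, fell by 0.32 in vehicle and 0.31 in the pair, and CDK2 fell by 0.58 in vehicle and read -0.27 in the pair without passing. CCND1, the main D-type cyclin, differed by -0.05 (adjusted p = 0.53). CDKN1A, the p21 inhibitor, fell by 0.26, and its value in the pair was 0.13 (adjusted p = 0.27). CCND3, another D-type cyclin, fell by 0.31 and read 0.01 in the pair. Without quantile normalization CDK4, CDKN1A and CCND3 turn to 0.10, 0.036 and 0.10.

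Of 40 members of the ATF4 and amino acid list, 15 fell and 6 rose, though without quantile normalization 17 rose and 6 fell. SLC3A2, the heavy chain of the CD98 amino acid transporter, read 12.34, 12.41, 12.37 and 12.40 at 6 h and 11.63, 11.64, 11.61 and 11.56 at 24 h. It fell by 0.77 ± 0.11 (adjusted p = 2.58e-06) and by 0.43 in the bright RO4929097 pair (adjusted p = 0.04). Its light chain SLC7A5 fell by 0.73 and read -0.29 in the pair, which did not pass (adjusted p = 0.078). PHGDH, the first enzyme of serine synthesis, fell by 0.55 and by 0.29. ASNS, asparagine synthetase, differed by -0.08 (adjusted p = 0.38).

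In the list of polyamine and nucleotide synthesis, 11 of 21 fell and 3 rose, 5 and 1 of them also in the bright RO4929097 pair, and 14 fell in H460a. Without quantile normalization 8 rose and 1 fell. AMD1, which supplies the aminopropyl groups of polyamines, fell by 0.53 ± 0.08 (adjusted p = 8.29e-06), CAD, which starts pyrimidine synthesis, by 0.37, and CTPS1, which makes CTP, by 0.33. In the pair these fell by 0.60, 0.29 and 0.36. SAT1, which breaks polyamines down, went the other way, from 12.78, 12.45, 12.53 and 12.50 at 6 h to 13.37, 13.29, 13.35 and 13.39 at 24 h, a rise of 0.79 ± 0.08 in vehicle and of 0.52 in the pair.

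For ribosome biogenesis the direction rests on the scale. With quantile normalization 16 of 35 fell and 4 rose (median -0.15), without it 17 rose and 3 fell (median 0.15), and in the bright RO4929097 pair 4 fell and 0 rose. In H460a 31 of 35 fell (median -0.62). NOP2 and MRTO4, nucleolar factors of the large subunit, fell by 0.46 and 0.53 in A549 vehicle and read -0.17 and -0.19 in the pair. WDR43, a factor of the small subunit, rose by 0.63 in A549 vehicle, read 0.01 in the pair and fell by 0.51 in H460a, a difference of -1.14 between lines (adjusted p = 3.96e-07).

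Of 35 members of the list of plasma proteins and hepatocyte factors, 16 rose and 3 fell in vehicle (median 0.13), 14 of the 16 also rose in the bright RO4929097 pair, and without quantile normalization 17 rose and 2 fell. With mean intensity as a covariate 8 rose and 0 fell. In H460a 6 rose and 5 fell.

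FGG, the gamma chain of fibrinogen, the clotting protein of plasma, read 9.56, 9.57, 9.58 and 9.54 at 6 h and 10.96, 11.20, 10.99 and 11.03 at 24 h. The groups were far apart, and the mean rose by 1.48 ± 0.11 (adjusted p = 3.11e-11), or 2.80-fold, in A549 vehicle, by 1.80 in the bright RO4929097 pair and by 1.85 in H460a. The alpha chain FGA read 10.92, 10.88, 10.97 and 11.02 at 6 h and 11.84, 12.08, 11.69 and 11.92 at 24 h, a rise of 0.93 ± 0.09, and the beta chain FGB rose by 0.84 ± 0.15. In H460a FGA fell by 0.24 (adjusted p = 0.04) and FGB read 0.09, so that the chains moved together in A549 and apart in H460a, with a difference between lines of -1.17 for FGA (adjusted p = 3.96e-08) and -0.75 for FGB (adjusted p = 0.0084).

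CP, ceruloplasmin, the copper oxidase of plasma, rose by 0.88 ± 0.11 in A549 vehicle, by 1.01 in the bright RO4929097 pair and by 1.13 in H460a. CFI, the protease of the complement system, rose by 0.98, from a low level near 6. SERPINA3, another acute phase gene, fell by 0.28 in vehicle and by 0.49 in the pair. RBP4, the carrier of retinol, differed by -0.09 in vehicle and rose by 1.30 in the pair, and the time change differed between treatments by 1.32 over all RO4929097 arrays (adjusted p = 0.00051).

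Mucus and airway secretion genes moved both ways, at counts not far from the background. Of 31 goblet and club cell members, 7 rose and 7 fell, where 16.6% of all genes rose and 22.1% fell. Of the rises and falls, 6 and 1 were also seen in the bright RO4929097 pair. Only 12 of the 31 lay above the median level. FCGBP, a mucus protein that binds IgG Fc, read 8.73, 8.53, 8.62 and 9.02 at 6 h and 9.85, 9.81, 9.97 and 9.94 at 24 h. It rose by 1.16 ± 0.11 (adjusted p = 2.06e-09) in vehicle and by 2.28 in the pair, and the time change was larger with RO4929097 by 0.96 (adjusted p = 0.00073).

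AGR2, an ER isomerase that folds mucins, rose by 0.63 in vehicle and by 1.17 in the pair, and BPIFA1, an antimicrobial protein of airway fluid, by 0.46 and 2.01. For these genes, too, the time changes differed between treatments, by 0.51 (adjusted p = 0.0017) and 1.44 (adjusted p = 1.67e-07). MUC5B, a gel-forming mucin, rose by 0.36 (adjusted p = 0.042) with overlapping groups, and did not pass when any of arrays 2, 3 or 4 at either time was left out (0.31 to 0.36), or with the mean of its probe sets (0.19). TFF1, a trefoil peptide, fell by 0.68 and by 0.82 in the pair. Of 19 members of the alveolar type II list 3 rose and 6 fell; SFTPB, a surfactant protein, fell by 0.33 in vehicle and read -0.04 in the pair.

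Of 22 ERK outputs 13 rose and 1 fell (median 0.19), and without quantile normalization 15 rose and 1 fell, while in the bright RO4929097 pair 5 rose and 1 fell. DUSP6, the phosphatase that turns off ERK and is itself an ERK target, read 8.76, 8.61, 8.46 and 8.62 at 6 h and 9.69, 9.65, 9.81 and 9.85 at 24 h. It rose by 1.14 ± 0.08 (adjusted p = 1.15e-11), by 0.80 in the pair and by 0.95 in H460a. SPRY2 and SPRED1, inhibitors of the same pathway, rose by 0.58 and 0.68 in vehicle but read 0.24 each in the pair, which did not pass. ETV1, an ETS factor, rose by 0.75 ± 0.17 in vehicle and read -0.23 in the pair.

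Immediate early genes, which serum or stress switches on within minutes, gave 11 higher and 3 lower of 33, and 22 and 1 without quantile normalization. NR4A2, an orphan nuclear receptor, read 7.66, 7.35, 7.11 and 7.45 at 6 h and 8.61, 8.47, 8.54 and 8.49 at 24 h, a rise of 1.14 ± 0.09 in vehicle. In the bright RO4929097 pair the rise was 0.45, and the time change over all RO4929097 arrays differed from vehicle by -0.54 (adjusted p = 0.022). EGR1, a zinc finger factor, rose by 0.87 and FOS, a subunit of AP-1, by 0.58 in vehicle. CCN2, a matrix protein known as a YAP and TGF-beta target, rose by 0.85, and by 0.81 in the pair. MYC, a driver of growth, fell by 0.13 (adjusted p = 0.036) with overlapping groups, and turns to 0.25 without quantile normalization.

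CXCL8, also called IL-8, which draws neutrophils, read 9.44, 9.21, 9.19 and 9.56 at 6 h and 10.25, 10.53, 10.43 and 10.46 at 24 h. It rose by 1.07 ± 0.08 (adjusted p = 1.32e-10) in vehicle and by 0.84 in the bright RO4929097 pair, and it fell by 0.22 in H460a. CXCL1, CXCL2 and CXCL3, which act on the same receptor, rose by 0.53, 0.83 and 0.62 in A549 vehicle and fell by 0.63, 1.73 and 1.25 in H460a. CXCL5 and CXCL6, of the same group, were 0.40 (adjusted p = 0.00012) and 0.14 (adjusted p = 0.23) in A549 vehicle, and -0.25 and -0.15 in H460a. The time changes differed between lines by -1.29 for CXCL8, -1.15 for CXCL1, -2.56 for CXCL2 and -1.87 for CXCL3 (adjusted p from 1.84e-13 for CXCL2 to 2.00e-09 for CXCL8).

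Over the whole chemokine and cytokine list, 10 of 29 rose and 5 fell, and 7 and 0 did so in the pair as well. TNFSF10, the death ligand TRAIL, rose from 5.95, 6.03, 5.96 and 5.85 to 7.14, 7.53, 7.62 and 7.41, by 1.48 ± 0.11 in vehicle and 1.58 in the pair. CCL5, which draws T cells, fell by 0.60 in vehicle but read -0.02 in the pair. IL6 differed by -0.18 (adjusted p = 0.18).

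In fatty acid synthesis 10 of 22 rose and 5 fell, with 6 and 0 also in the bright RO4929097 pair, and without quantile normalization 14 rose and 1 fell. SCD, the desaturase that makes oleate, read 13.46, 13.42, 13.39 and 13.37 at 6 h and 13.91, 13.93, 13.89 and 13.97 at 24 h. It rose by 0.52 ± 0.04 (adjusted p = 8.13e-11), by 0.62 in the pair and by 0.50 in H460a. ELOVL6, which lengthens palmitate, rose by 0.68 in A549 vehicle, by 0.65 in the pair and differed by 0.04 in H460a, a difference between lines of -0.64 (adjusted p = 3.38e-05). ACSL4, which activates arachidonate, rose from 8.76, 8.02, 7.94 and 8.31 to 9.30, 9.60, 9.61 and 9.56, by 1.26 ± 0.15.

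In cholesterol synthesis and uptake 7 of 19 rose and 4 fell, and in the pair 11 rose and 0 fell, 6 of them shared. Without quantile normalization 13 rose and 1 fell. HMGCS1, which makes HMG-CoA, read 7.57, 7.43, 7.26 and 7.26 at 6 h and 8.13, 8.29, 8.21 and 8.30 at 24 h, a rise of 0.85 ± 0.10 in vehicle and 0.51 in the pair. Its probe set with the largest interquartile range gave 0.20 in vehicle, which did not pass (adjusted p = 0.49). MSMO1, a demethylase of sterols, STARD4, a sterol carrier, and INSIG1, which holds SREBP in the ER, rose by 0.58, 0.63 and 0.48. EBP, a sterol isomerase, fell by 0.55 in vehicle but read -0.02 in the pair.

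Of 10 LXR targets 4 rose and 0 fell. ABCG1, which exports cholesterol, read 8.16, 8.06, 8.06 and 8.10 at 6 h and 9.15, 9.24, 9.42 and 9.38 at 24 h. It rose by 1.20 ± 0.10 (adjusted p = 7.74e-10), or 2.30-fold, in A549 vehicle, by 0.69 in the bright RO4929097 pair and differed by -0.06 in H460a, so that the lines differed by -1.26 (adjusted p = 1.36e-07). NR1H3, the LXR-alpha receptor itself, rose by 0.39 and by 0.72 in the pair. ABCA1, the partner exporter, rose by 0.62 in vehicle and read 0.17 in the pair, and only 1 of its 3 other probe sets moved the same way.

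In PPAR targets and lipid droplets 6 of 26 rose and 5 fell, against 11 and 3 without quantile normalization, where the median turns from -0.07 to 0.16. PPARGC1A, the coactivator PGC-1alpha, rose by 0.69 in vehicle, 0.98 in the pair and 0.94 in H460a. PNPLA2, the lipase of droplets, fell by 0.68 in vehicle and read 0.10 in the pair. Over all RO4929097 arrays its time change differed from vehicle by 0.54 (adjusted p = 0.045).

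**Figure D3:**
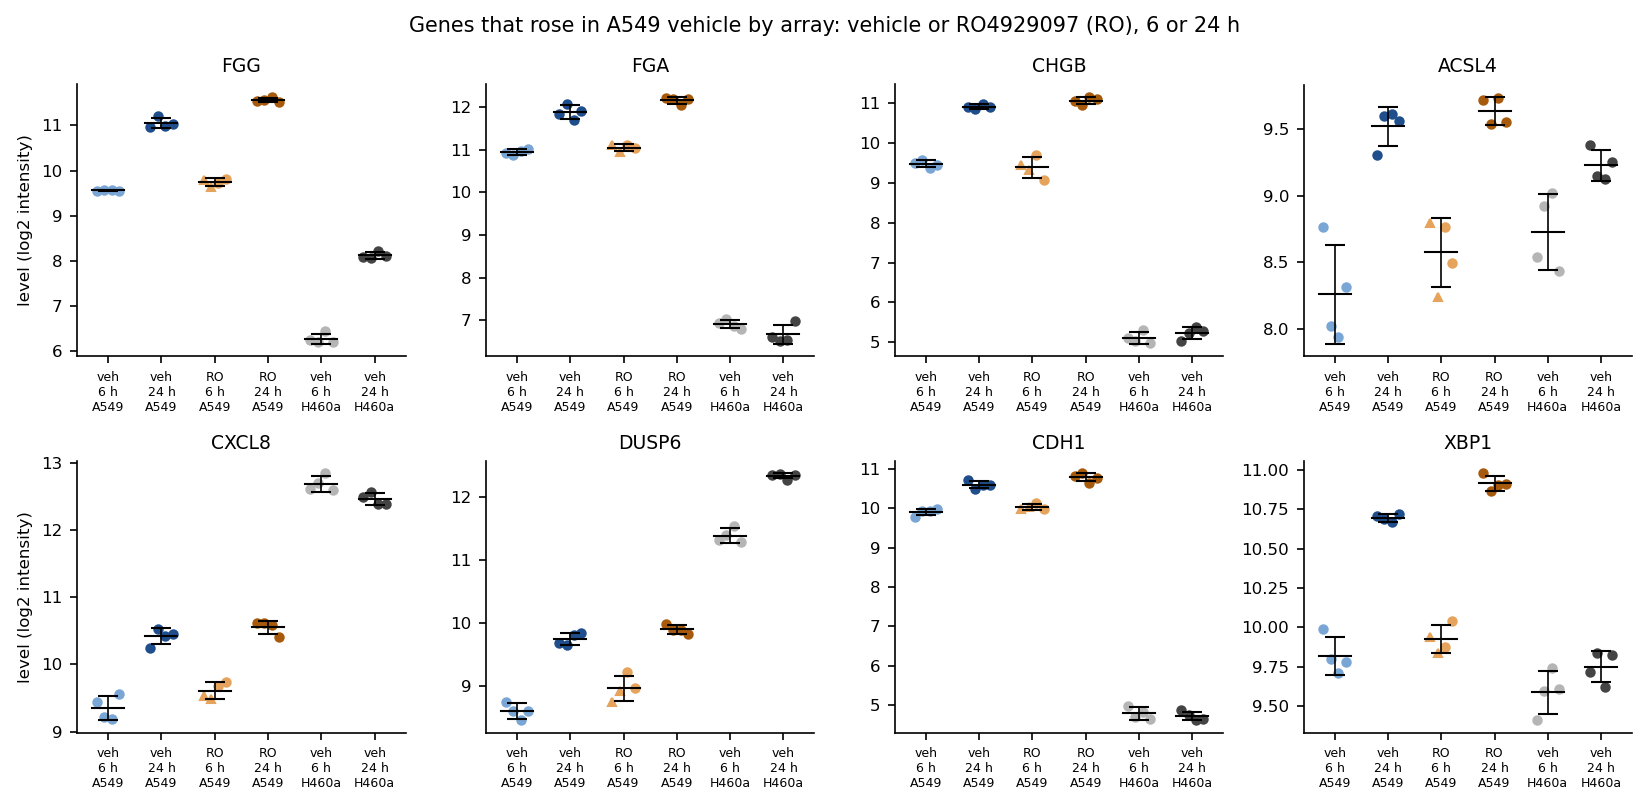
Log2 level of 8 genes that rose in A549 vehicle, on each array of 6 groups, with the mean (bar) and the SD (whiskers) of 4 arrays; triangles are RO4929097 arrays 1 and 2 at 6 h. In every panel the 4 vehicle arrays of A549 at 24 h lie above the 4 at 6 h, while in H460a CXCL8 and FGA were lower at 24 h by 0.22 and 0.24.

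In the list of glycolysis and hypoxia 11 of 39 rose and 7 fell in A549 vehicle, against 31 and 1 in H460a, and without quantile normalization 32 rose in A549. BNIP3 and BNIP3L, which mark mitochondria for removal, rose by 0.59 and 0.60 in A549 vehicle, by 0.57 and 0.43 in the bright RO4929097 pair and by 0.90 and 1.88 in H460a. PDK1, a kinase that inhibits pyruvate dehydrogenase, rose by 0.54, 0.46 and 1.35 in the same order, and P4HA1, which hydroxylates collagen, by 0.40, 0.49 and 1.29. The lines differed for BNIP3L by 1.28 (adjusted p = 8.95e-11) and for PDK1 by 0.81 (adjusted p = 3.25e-07). VEGFA, the vascular growth factor, rose by 0.30 in vehicle and read 0.01 in the pair, and 0 of its 3 other probe sets moved the same way. GAPDH, a glycolytic enzyme of high level, differed by -0.01 (adjusted p = 0.83).

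TXNIP, which curbs glucose uptake and is switched on by MondoA, read 6.81, 6.70, 6.85 and 6.68 at 6 h and 7.29, 7.23, 7.57 and 7.58 at 24 h. It rose by 0.66 ± 0.09 in A549 vehicle, by 0.93 in the bright RO4929097 pair and by 2.62 in H460a, a difference of 1.96 between lines (adjusted p = 3.09e-12). PDK4, a FOXO and PPAR target that spares glucose, rose by 0.67 in A549 vehicle, 0.67 in the pair and 2.01 in H460a. ARRDC3, an arrestin of the same family as TXNIP, rose by 1.02 in vehicle and read 0.36 in the pair (adjusted p = 0.0595).

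HK1, the housekeeping hexokinase, fell by 0.52 in vehicle and read 0.04 in the pair, and over all RO4929097 arrays its time change differed from vehicle by 0.42 (adjusted p = 0.02). In the MondoA and FOXO list as a whole 8 of 20 rose and 6 fell, and 5 and 0 of these did so in the pair, and without quantile normalization 7 rose and 2 fell. The 6 that fell in vehicle lay between -0.05 and 0.15 in the pair.

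GLUL, glutamine synthetase, read 8.64, 8.64, 8.46 and 8.27 at 6 h and 9.76, 9.62, 9.85 and 9.67 at 24 h. It rose by 1.22 ± 0.09 (adjusted p = 1.43e-11), or 2.34-fold, by 0.75 in the pair and by 0.70 in H460a. Of the 17 members of the glucocorticoid list 3 rose and 0 fell in A549 vehicle, 12 and 0 without quantile normalization, and 12 and 2 in H460a.

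Of 29 ER members 8 rose and 9 fell, though without quantile normalization 21 rose and 0 fell. XBP1, the factor spliced by IRE1, read 9.99, 9.80, 9.71 and 9.78 at 6 h and 10.71, 10.69, 10.67 and 10.72 at 24 h. It rose by 0.88 ± 0.07 (adjusted p = 5.03e-11) in A549 vehicle and by 0.96 in the bright RO4929097 pair. ERN1, which encodes IRE1, rose by 0.89 and 0.83, and the co-chaperones DNAJB9 and DNAJC3 by 0.72 and 0.33 in vehicle. In H460a these 4 read 0.16, -0.14, -0.33 and -0.50, and DNAJB9 and DNAJC3 alone passed there. The lines differed for all 4 (adjusted p from 1.44e-09 for DNAJB9 to 8.42e-07 for XBP1). HSPA5, the main ER chaperone BiP, differed by -0.03 (adjusted p = 0.65) in A549 vehicle.

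Of 32 members of the list of epithelial junctions 14 rose and 4 fell (median 0.14), 8 and 0 of these also in the bright RO4929097 pair, and without quantile normalization 18 rose and 4 fell. CDH1, E-cadherin, read 9.79, 9.92, 9.94 and 9.97 at 6 h and 10.70, 10.49, 10.59 and 10.57 at 24 h. It rose by 0.69 ± 0.09 (adjusted p = 5.51e-07) in vehicle and by 0.73 in the pair, and differed by -0.06 in H460a. PKP2 and DSP, plaque proteins of desmosomes, rose by 1.23 and 0.79 in vehicle, and by 0.84 for PKP2 in the pair, where DSP read 0.35 without passing. PARD6B, of the PAR polarity complex, rose by 1.11 in vehicle and read 0.13 in the pair. Of the 11 epithelial markers measured 3 rose and 0 fell in vehicle (median -0.084), and the other 8 lay between -0.19 and 0.09. Without quantile normalization 8 rose and 0 fell, and in the pair 4 rose and 0 fell. Among those that rose, EPCAM and KRT19 did so by 0.57 and 0.41 from low levels, and by 0.60 and 0.68 in the pair.

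Among integrins and adhesion genes 9 of 21 rose and 3 fell. ITGB8, the subunit of the integrin that activates latent TGF-beta, rose by 1.79 ± 0.15, from 4.85, 5.14, 5.48 and 5.43 to 6.99, 7.05, 7.07 and 6.95. Its level is below that of the median gene. It rose by 0.62 in the pair, and over all RO4929097 arrays the time change differed from vehicle by -0.83 (adjusted p = 0.037). NT5E, the ectoenzyme CD73 that makes adenosine, rose by 1.03 ± 0.06 (adjusted p = 6.65e-12) in vehicle and 0.70 in the pair, and differed by -0.14 in H460a.

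Matrix genes moved both ways, 13 of 44 higher and 10 lower, with 4 in each direction shared with the bright RO4929097 pair, and 20 higher and 6 lower without quantile normalization. COL7A1, the collagen of anchoring fibrils, read 11.09, 10.97, 11.21 and 10.88 at 6 h and 9.99, 10.14, 10.20 and 10.01 at 24 h, and fell by 0.95 ± 0.11 (adjusted p = 2.53e-07). In the pair it fell by 0.63. NID2, a nidogen of basement membranes, fell by 0.68 and 1.07, and LOXL2, which crosslinks collagen, by 0.44 and 0.50. In H460a LOXL2 rose by 1.03, a difference of 1.47 between lines (adjusted p = 3.12e-12). FN1, fibronectin, rose by 0.48 and COL4A5, a collagen of basement membranes, by 0.77 in vehicle, and by 0.41 and 0.60 in the pair. The FN1 probe set with the largest interquartile range gave 0.087 (adjusted p = 0.84). In H460a 22 of the 44 rose and 0 fell.

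Of 18 clock genes 6 rose and 1 fell. DBP and HLF, PAR bZIP factors of clock output, rose by 0.45 and 0.96 in vehicle and by 0.56 and 0.61 in the bright RO4929097 pair. NFIL3, which opposes them at the same sites, rose by 0.42 and 0.44. NR1D2, the REV-ERB-beta repressor, rose by 0.92 in vehicle and read 0.41 in the pair, and CLOCK itself rose by 0.41 and read -0.03. With 2 times of sampling no rhythm can be read from these values.

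The 15 largest rises, at levels above the median, ran from 1.18 to 1.61. Of these 14 also rose in the bright RO4929097 pair and 6 in H460a. CHGB, secretogranin B, a protein of secretory granules, read 9.51, 9.58, 9.38 and 9.46 at 6 h and 10.91, 10.85, 10.99 and 10.92 at 24 h, a rise of 1.44 ± 0.14 (adjusted p = 7.20e-09) in A549 vehicle and 1.68 in the pair, with 0.13 in H460a. NHERF2, a scaffold of ion transporters, rose by 1.61 ± 0.21, PLD5, a member of the phospholipase D family, by 1.52 ± 0.12, and GASK1B, a Golgi protein of the FAM20-like kinase family, by 1.49 ± 0.11. Another GASK1B probe set, the one with the largest interquartile range, gave 0.24 and did not pass (adjusted p = 0.36).

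For PLD5 the rise in the pair was 0.51, the time change over all RO4929097 arrays differed from vehicle by -0.79 (adjusted p = 0.0099), and the lines differed by -1.68 (adjusted p = 4.64e-09). COL21A1, a fibril-associated collagen, rose by 1.44, MAP2, a microtubule protein of neurons, by 1.38, ACSM3, an acyl-CoA synthetase, and SYTL5, a Rab effector of exocytosis, by 1.24 each, and BCHE, butyrylcholinesterase, by 1.20. CITED2, a coregulator that competes with HIF-1 for its coactivators, rose by 1.18 in A549 vehicle, 0.76 in the pair and 1.53 in H460a. RASSF9, a Ras association protein, rose by 1.48 ± 0.23 in vehicle with a wide spread, and was the 1 of the 15 that did not pass in the pair (0.64, adjusted p = 0.21).

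The 15 largest falls behaved otherwise. They ran from -0.86 to -1.74, and MCM2 and COL7A1 alone among them also fell in the bright RO4929097 pair. The other 13 read between -0.25 and 0.38 in that pair and between -0.12 and 0.14 in H460a, and 0 of them passed in either. For each of these 13, RO4929097 arrays 1 and 2 at 6 h, which were dim like the vehicle arrays at 6 h, lay above arrays 3 and 4 and above all RO4929097 arrays at 24 h.

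ZNF236, a zinc finger gene, read 10.43, 10.21, 10.58 and 10.46 in vehicle at 6 h and 8.78, 8.60, 8.70 and 8.64 at 24 h, a difference of -1.74 ± 0.20. With RO4929097 at 6 h it read 10.37 and 9.81 on arrays 1 and 2 and 8.60 and 9.00 on arrays 3 and 4, and 8.68 to 8.90 on the arrays at 24 h. Its level was thus high on the dim arrays of both treatments and low on the bright arrays of both times, and its other probe set did not move the same way. ZNF548, another zinc finger gene, had a mean of 10.21 in vehicle at 6 h and 8.49 at 24 h, and read 9.88 and 9.54 on the dim RO4929097 arrays, and 8.57 and 8.97 on the bright arrays at 6 h.

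The same order held for GNAO1, a G protein subunit of neurons, which fell by 1.24, and for LCP1, the L-plastin of leukocytes, which fell by 0.93. It held also for LYL1, a factor of blood cells, KLC3, a kinesin light chain, CYP4F12, a cytochrome P450, TCP11L2, VWA3A, WHAMMP2, DYNLT2, and the long RNAs LINC00520 and HOTTIP. With mean intensity as a covariate, as defined above on the log2 scale, ZNF236, LINC00520, VWA3A, TCP11L2, CYP4F12, WHAMMP2, LCP1 and HOTTIP no longer passed, nor did COL7A1. MCM2, ZNF548, GNAO1, DYNLT2, KLC3 and LYL1 did.

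**Figure D4:**
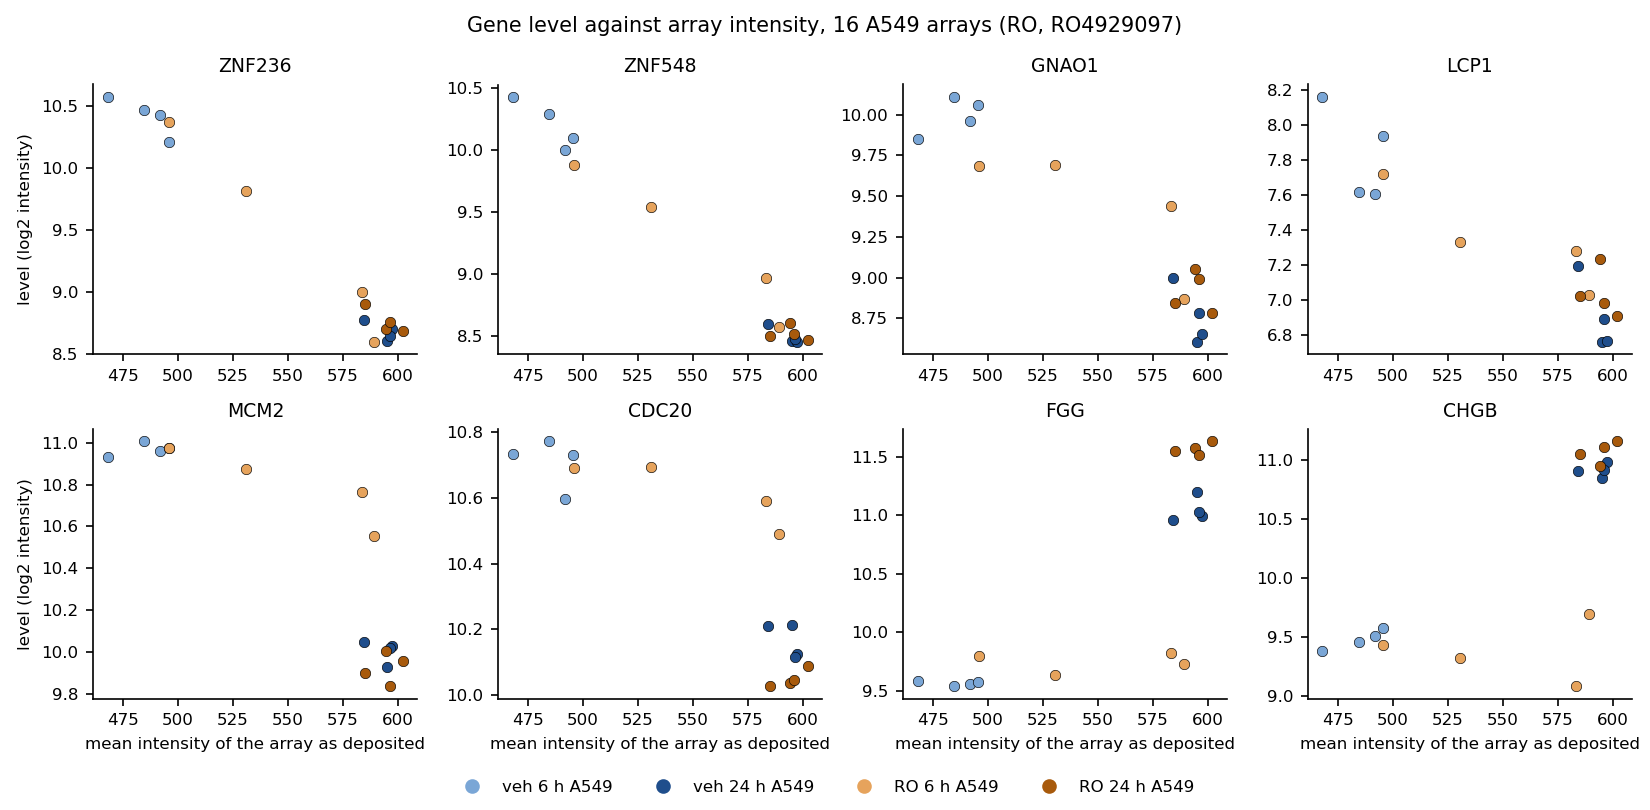
Log2 level of 8 genes against the mean intensity of each of the 16 A549 arrays as deposited, coloured by treatment (vehicle or RO4929097, RO) and time. ZNF236, ZNF548, GNAO1 and LCP1 are higher on each of the 6 dim arrays than on the other 10, while FGG and CHGB are low on all 8 arrays at 6 h, and MCM2 and CDC20 are lower at 24 h than on any array at 6 h.

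HES1, the classic Notch target, differed by 0.11 (adjusted p = 0.53) in vehicle. Without quantile normalization it passed, with a rise of 0.36. ACTB, beta-actin, fell by 0.11 (adjusted p = 0.027) and turns to 0.11 higher without quantile normalization. Of the 422 genes whose time change differed between treatments, 225 were higher and 197 lower with RO4929097. Without quantile normalization 130 were higher and 603 lower, and with median centring 109 and 538. Among the largest, ID2, an inhibitor of bHLH factors, rose by 0.41 in vehicle and fell by 0.67 in the pair, with a difference of -1.05 (adjusted p = 1.67e-07). VGLL3, a TEAD cofactor, rose by 0.96 in vehicle and read -0.14 in the pair, and RNF182, a ubiquitin ligase, rose by 0.64 and fell by 0.63. TNFAIP6, a hyaluronan-binding protein, rose by 1.07 in vehicle and fell by 0.48 in the pair, with a difference of -1.44 (adjusted p = 7.40e-07), at a level below the median gene. PMEPA1 and SPOCK1, known as TGF-beta targets, differed by -0.30 and 0.04 in vehicle and fell by 1.15 and 0.93 in the pair. Without quantile normalization PMEPA1 turns to 0.099 in vehicle, and SPOCK1 passed with a rise of 0.28. At 6 h this contrast sets 4 dim vehicle arrays against 2 dim and 2 bright RO4929097 arrays; ZNF236 and ZNF548 are also among its largest, at 1.06 and 0.99, and the part of intensity was not tested.

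Of the 6137 genes whose time change differed between lines, 3334 were higher and 2803 lower in H460a. Without quantile normalization 2202 were higher and 4821 lower, with median centring 1740 and 5225, and with mean intensity as a covariate 1567 genes were left. The dim vehicle arrays at 6 h are on the A549 side of this comparison. Of the genes that rose in A549 vehicle, 1368 also rose in H460a vehicle, 41.8% of the A549 list and 42.3% of the H460a list, and 391 fell there. Of those that fell in A549, 1164 also fell in H460a, 26.6% and 37.5% of the lists, and 305 rose. RDH10, which makes retinal from retinol, rose by 0.81 in A549 and fell by 1.00 in H460a, and PHLDA2, a growth-restraining imprinted gene, rose by 0.52 and fell by 1.20. NRN1, PPFIA4 and SPAG4 rose by 2.33, 1.98 and 2.17 in H460a and did not pass in A549 (-0.26, -0.01 and 0.12). Without quantile normalization SPAG4 passed in A549, with a rise of 0.29.

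**Figure D5:**
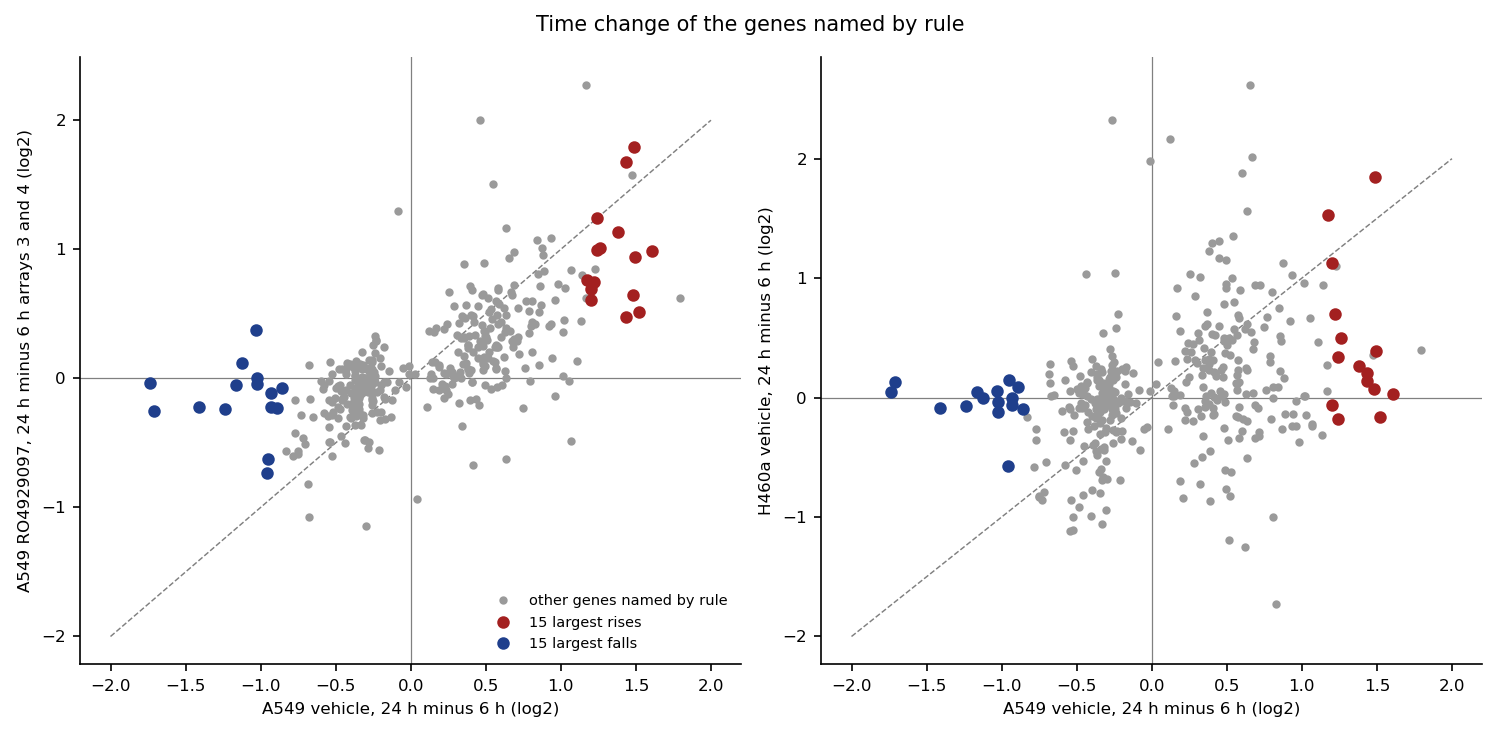
Difference between 24 h and 6 h (log2) of the genes named by rule, in A549 vehicle (horizontal) against the bright RO4929097 pair (left, vertical) and H460a vehicle (right, vertical); the dashed line marks equal values. The 15 largest rises (red) lie above 0 in the left panel, while 13 of the 15 largest falls (blue) lie between -0.25 and 0.38 there and between -0.12 and 0.14 in the right panel.

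Among the remaining lists, 8 of 16 members of the aryl hydrocarbon and drug metabolism list rose and 1 fell, with the receptor AHR at 0.68 in vehicle and 0.29 in the bright RO4929097 pair, where it did not pass. In the NRF2 list, which A549 is known to express at high level, 4 of 33 rose and 12 fell, but without quantile normalization 24 rose and 3 fell. NQO1, its best known member, differed by 0.03 (adjusted p = 0.63), and passed without quantile normalization with a rise of 0.35. CBR1, a carbonyl reductase, fell by 0.77 and read -0.17 in the pair. For oxidative phosphorylation 12 of 27 fell and 4 rose, against 1 and 18 without quantile normalization, and 1 in each direction in the pair. Of 22 cytosolic ribosomal proteins 3 rose and 0 fell, against 21 and 0 without quantile normalization and 0 and 0 in the pair. IGFBP1, which binds insulin-like growth factors, rose by 1.17 ± 0.18, and read 0.63 in the pair (adjusted p = 0.062). FLCN, folliculin, a regulator of mTORC1 at the lysosome, rose by 1.02 in vehicle and read 0.02 in the pair.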

How the data were processed

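RNA of each sample was hybridized to 1 Affymetrix array with 54675 probe sets. The deposited values are linear intensities summarised by RMA, per the submitters' processing notes, and log2 was taken here. Values were quantile normalized over 32 arrays and fitted with limma 3.58.1 in R 4.3.3 as 8 group means, with Benjamini-Hochberg adjustment over 19775 genes. Each gene was read from its probe set with the highest mean, among 41091 that name 1 gene; 11721 name none and 1801 several. The members and the 50 gene lists were chosen with earlier results of these data known. Named genes are the 15 largest rises and falls among called genes without overlap and above the median level, up to 5 members of each list in each direction, the 5 largest differences in each direction between lines and between treatments, and a set of standard genes. CCNE2, TOP2A, MCM3 and MCM6 were added after their values were seen, as were the bright RO4929097 pair and the covariates. In simulated data with 50 genes changed at each size, the test found 20 at 1.25-fold and 49 at 1.5-fold. Replicate numbers did not pair the vehicle arrays. Alternatives were another scaling, other probe sets, array weights, covariates, a replicate block and each array left out.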

Additional observations from a re-analysis of the deposited data

Results flagged for a closer look

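In 14 of 322 groups of 4 arrays looked at, 1 array lay far from the other 3, and chance gives about 1 in 20. At 6 h these were CENPA on array 1 (9.79), CDK2 on array 1 (10.02), CITED2 on array 2 (8.52), DSP on array 4 (11.32) and the 3′ to 5′ ratio of beta-actin on array 1 (0.21). At 24 h they were CDT1 (8.40), GAPDH (15.2), TFF1 (7.97) and DYNLT2 (6.64) on array 2, ACSL4 (9.30), MUC5B (8.51) and ZNF548 (8.60) on array 1, LOXL2 (12.15) on array 3 and IL6 (6.05) on array 4.

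The time change differed between H460a and A549 vehicle, by limma's interaction term, for CXCL2 (-2.56, adjusted p = 1.84e-13), CXCL3 (-1.87, 2.30e-11), RDH10 (-1.81, 3.92e-10), PHLDA2 (-1.71, 1.79e-12) and PLD5 (-1.68, 4.64e-09). It differed the other way for NRN1 (2.59, adjusted p = 1.49e-10), SPAG4 (2.04, 2.17e-12), PPFIA4 (1.99, 4.22e-10), TXNIP (1.96, 3.09e-12) and ZNF548 (1.85, 1.53e-06).

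Between RO4929097 and vehicle in A549 the same term was negative for ID2 (-1.05, adjusted p = 1.67e-07), RNF182 (-1.02, 5.75e-05), VGLL3 (-0.93, 0.0031), PMEPA1 (-0.93, 2.54e-06) and SPOCK1 (-0.89, 2.54e-06). It was positive for BPIFA1 (1.44, adjusted p = 1.67e-07), RBP4 (1.32, 0.00051), ZNF236 (1.06, 0.043), ZNF548 (0.99, 0.036) and TM4SF20, a tetraspanin-like membrane protein (0.98, 0.00038).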

How the results depend on the processing

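Of 157 genes named, 143 passed in vehicle, and 113 of these kept their direction and call under every setting but the size rule, the covariates and the replicate block, 64 under those too. The 7648 genes past the threshold in vehicle became 742 with a size of at least 0.58, 785 with mean intensity as a covariate, 4324 with the hybridization controls as a covariate and 6374 to 7467 with 1 array left out. A size of at least 0.58 left 357 genes with RO4929097, 1315 in H460a, 1545 for the difference between lines and 87 for that between treatments. Mean intensity as a covariate left 1567 between lines and 24 between treatments. Leaving out 1 array gave 2614 to 3923 genes with RO4929097, 5839 to 6282 in H460a, 5350 to 6223 between lines and 133 to 842 between treatments. Leaving out the 3 arrays that stand apart (RO4929097 arrays 1 and 2 and H460a vehicle array 3, all at 6 h) gave 2221 with RO4929097 and 2569 between treatments. The 422 genes that differed between treatments became 733 on the deposited scale, 647 with median centring, 745 without genes under the median level, 1329 with array weights and 160 with the hybridization controls. Causes of these changes were not tested. The numbers of the vehicle arrays did not pair them, with correlations of -0.162 to 0.0248, and a replicate block gave 7096 genes in vehicle, 2953 with RO4929097, 5990 in H460a, 5556 between lines and 128 between treatments.

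Some genes turned. On the deposited scale and with median centring, in this order, the vehicle difference was 0.11 and 0.10 for ACTB, 0.11 and 0.097 for ASNS, 0.22 and 0.21 for CCND1, 0.10 and 0.094 for CCND3, 0.10 and 0.090 for CDK4, 0.036 and 0.026 for CDKN1A, 0.18 and 0.17 for GAPDH, 0.44 and 0.43 for HSPA5, 0.25 and 0.24 for MYC, 0.099 and 0.089 for PMEPA1, 0.17 and 0.16 for RBP4, and 0.28 and 0.27 for TOP2A. The mean of all probe sets gave -0.084 for HES1, -0.064 for NQO1 and -0.095 for VEGFA. The probe set with the largest interquartile range gave -0.21 for ECT2, -0.059 for NQO1, -0.17 for RB1, 0.17 for TCP11L2, 0.027 for TOP2A, -0.27 for VEGFA and 0.69 for ZNF236. Mean intensity as a covariate gave 0.056 for ASNS, -0.067 for CCNE2, -0.027 for NQO1 and -0.11 for SPOCK1, and the hybridization controls gave 0.0044 for GAPDH, -0.017 for NQO1 and 0.055 for PPFIA4. With 1 array left out SPOCK1 ranged from -0.0129 to 0.12, GAPDH from -0.025 to 0.0032 and PPFIA4 from -0.10 to 0.060. Some calls were gained. On the deposited scale and with median centring these were HES1 (0.36 and 0.35), NQO1 (0.35 and 0.34), SPAG4 (0.29 and 0.28) and SPOCK1 (0.28 and 0.27). Without vehicle array 2 at 6 h IL6 passed at -0.27. Some calls were lost with the direction kept. With the probe set of largest interquartile range these were DNAJC3, FN1, GASK1B, HMGCS1, SCD (0.36, adjusted p = 0.10), SFTPB and SPRED1, with the mean of all probe sets CLOCK, DBP, DNAJC3, ECT2, ETV1, KRT19, MUC5B, PDK1 and RB1, and on the deposited scale CAD, CDK2, CTPS1, HK1 and LOXL2. Mean intensity as a covariate ended 57 calls, among them CDT1, ORC1, CENPA, SLC3A2, CXCL1, CXCL2, FOS, TXNIP, NUF2, DSP and NHERF2. The replicate block ended those of ACTB, MUC5B and MYC.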
